A study of Mus musculus with 6 samples.

Results

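The 10 genes described here are those of the core circadian oscillator (Arntl, Clock, Per1, Per2, Per3, Cry1 and Cry2) and the PAR bZIP transcription factors that it drives (Dbp, Tef and Hlf). They were found by symbol, and each matched a single one of the 24489 gene entries in the deposited read table. All 10 passed the filter on low counts, as did 13819 entries in all. RNA came from untreated livers, 1 lobe each, at postnatal day 10, on a C3H/C57bl6J strain background. The 6 libraries comprised 3 from Jag1Ndr/Ndr and 3 from Jag1+/+ mice, which shared age, tissue and background. The Nodder (Ndr) allele is a germline missense change in Jag1, the gene of a Notch ligand, and is therefore present in all cells of the mouse and not in the bile duct alone; since the transcript is still made, Jag1 reads do not check the genotype. Homozygotes serve as an Alagille syndrome model with sparse bile ducts and cholestasis. The labels give neither the clock hour of collection nor whether each library came from a separate animal, so p-values measure the spread between these libraries, which may be technical.

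In the mammalian clock the proteins CLOCK and ARNTL (also called BMAL1) bind E-box sequences as a pair and switch on the Per and Cry genes, whose proteins return to the nucleus and repress that pair. An interlocked loop runs through the nuclear receptors of the Rev-erb (Nr1d1, Nr1d2) and ROR families, which repress and activate Arntl. The PAR bZIP factors bind D-box sequences, carry the rhythm to target genes and, in mouse liver, act on genes of drug and lipid metabolism. Because these transcripts cycle over the day in adult liver and the hour of collection is not given, a difference in level and a difference in daily timing cannot be told apart in these data.

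The windows before the annotated start of Per3, Hlf and Cry1 are shown because Per3 and Hlf are the genes that passed the test below and Cry1 is the next by adjusted p. They come from RefSeq on GRCm38.p6, the build that mm10 names, and are written 5′ to 3′ on the strand of the gene, with capitals marking matches to the motifs named next. All 3 genes lie on the minus strand, Per3 with the window chr4:151044708-151044915, Hlf with chr11:90390918-90391167 and Cry1 with chr10:85185055-85185304. The windows of Hlf and Cry1 hold the 250 bases before the start, and that of Per3 the first 208 of them, since the other 42 lie within the annotated span of the gene.
Per3: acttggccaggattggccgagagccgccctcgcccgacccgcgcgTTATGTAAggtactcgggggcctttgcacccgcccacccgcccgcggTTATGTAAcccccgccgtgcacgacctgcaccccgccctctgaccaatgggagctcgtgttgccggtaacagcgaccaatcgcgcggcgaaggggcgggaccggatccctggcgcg
Hlf: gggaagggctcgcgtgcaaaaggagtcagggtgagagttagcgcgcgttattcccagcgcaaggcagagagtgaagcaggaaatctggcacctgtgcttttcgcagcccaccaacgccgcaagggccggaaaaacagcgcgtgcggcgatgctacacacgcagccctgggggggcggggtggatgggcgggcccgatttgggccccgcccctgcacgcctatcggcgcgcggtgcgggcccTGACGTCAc
Cry1: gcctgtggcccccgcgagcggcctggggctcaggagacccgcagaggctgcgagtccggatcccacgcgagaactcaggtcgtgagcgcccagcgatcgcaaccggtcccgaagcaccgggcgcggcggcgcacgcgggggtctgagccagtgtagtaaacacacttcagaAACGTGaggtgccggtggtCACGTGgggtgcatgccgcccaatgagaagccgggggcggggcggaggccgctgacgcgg

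The motifs searched on both strands were the E-box CACGTG, the variant E-box CACGTT, the D-box TTANGTAA, the cyclic AMP response element TGACGTCA and a ROR motif ANTNGGTCA. The table held 14 windows of 250 bases for 9 of the 10 genes, since some have several start sites, and none for Per2. Per3 had 2 D-boxes, 205 and 158 bases before its start, a motif found in 2.06% of all 32851 windows. Hlf had a cyclic AMP response element 9 bases before its start (1.55% of windows) and no E-box or D-box letters in this window. The bases just after the starts of Hlf and Cry2 were found in no transcript of these genes in a second annotation, GENCODE. Those of Per3 and Cry1 were found, so the position given for Hlf is less secure. Cry1 had an E-box 60 bases and a variant E-box 79 bases before its start, the variant reading AACGTG on the printed strand. The E-box was found in 6.02% of all windows, and among these genes at a start site of Per1, at that of Cry1 and at both of Tef. The variant E-box was found in 3.85% of all windows, and here in those of Cry1 and Cry2. The ROR motif was found in 1.87% of all windows and in 0 of these 14. The matches describe letters in short windows and are not measured binding.

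Total reads ran from 12992592 to 59653111 in Jag1Ndr/Ndr libraries and from 17548954 to 40499166 in Jag1+/+ libraries. The levels of 10 hepatocyte markers summed to between 104755 and 190484 CPM in Jag1Ndr/Ndr livers, against 222156 to 229127 CPM in Jag1+/+ livers. Here CPM is reads scaled to a common library total. Most of each sum was Alb, at 86174 to 150001 CPM in Jag1Ndr/Ndr and 176061 to 180201 CPM in Jag1+/+ livers. Alb itself did not pass (edgeR adjusted p = 0.214). Of the 9 markers tested 2 were lower, and 7 log2 fold changes lay below and 2 above 0. Of these markers Ass1, an enzyme of the urea cycle, had at most 17 reads in a Jag1Ndr/Ndr library and 12 in a Jag1+/+ library. The deposited RPKM, which is per gene length, was 14.1 for those 17 reads, whereas 567 reads of Clock in the same library gave 3.80. Few bases of the Ass1 entry were therefore counted, and its reads do not show a low level. Neutrophil markers (7 of 8 found in the table) summed to between 1036 and 2301 CPM in Jag1Ndr/Ndr livers, against 611 to 737 CPM in Jag1+/+ livers, with 4 of 7 higher. The 8 macrophage markers summed to between 1262 and 2202 CPM in Jag1Ndr/Ndr livers, against 618 to 1049 CPM in Jag1+/+ livers, with 2 of 8 higher. The 8 erythroid markers summed to between 251 and 672 CPM in Jag1Ndr/Ndr livers, against 139 to 304 CPM in Jag1+/+ livers. Of the 6 tested 2 were higher, and Hba-a1 was listed at 0 reads throughout. Hbb-b1 had 2 reads in Jag1Ndr/Ndr replicate 1, which gave a deposited RPKM of 126. As with Ass1, few of its bases were counted, and its reads do not show a low level. The 0 reads of Hba-a1 allow no such check. The 8 B cell markers summed to between 15.5 and 53.8 CPM in Jag1Ndr/Ndr livers, against 56.3 to 82.9 CPM in Jag1+/+ livers, with 1 lower. Cholangiocyte markers summed to between 62.6 and 161 CPM in Jag1Ndr/Ndr livers, against 95.3 to 139 CPM in Jag1+/+ livers (1 of 7 tested higher). Endothelial markers summed to between 614 and 659.6 CPM in Jag1Ndr/Ndr livers, against 609.6 to 688 CPM in Jag1+/+ livers. Of these 8 markers 0 were called by edgeR and 2 had an unadjusted p under 0.05. Stellate cell markers summed to between 491 and 608 CPM in Jag1Ndr/Ndr livers, against 499 to 573 CPM in Jag1+/+ livers. The sums of these 3 cell types overlapped. Of the 8 stellate markers 1 was called lower by edgeR, Reln, and 5 had an unadjusted p under 0.05. Des, Dcn and Col1a1 lay higher, and Lrat and Reln lower, in every Jag1Ndr/Ndr library than in any Jag1+/+ library. The part of these shifts in the results below was not tested, and in bulk RNA fewer cells of a type and less RNA per cell cannot be told apart. By Xist, Jag1Ndr/Ndr replicates 2 and 3 and Jag1+/+ replicate 1 were female (at least 7252 reads) and the other libraries male (at most 29), so that sex was uneven between the genotypes. The Jag1Ndr/Ndr libraries lay wide apart on the second principal component and the Jag1+/+ libraries close together.

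The question put to these genes was whether their transcript levels differed between Jag1Ndr/Ndr and Jag1+/+ livers. Hlf and Per3 fell in Jag1Ndr/Ndr livers, by 2.36-fold and 2.39-fold. The other 8 genes did not pass the test; 7 of them had log2 fold changes below 0 and Per1 one above 0. The count of 2 lower and 0 higher stands beside all genes tested, of which 7.63% passed (2.90% lower and 4.73% higher), by edgeR's quasi-likelihood test at an adjusted p under 0.05. By DESeq2 3 were lower and 1 higher, and by limma with quality weights 3 were lower and 0 higher. Both also called more genes in all. Over all genes edgeR called 401 lower and 653 higher, DESeq2 735 and 1123, and limma with quality weights 644 and 950. At an unadjusted p under 0.05 there were 7 of the 10, against 22.5% of all genes. The median log2 fold change of the 10 genes was -0.56, against 0.0041 for all genes tested. Levels below, like the marker sums above, are CPM scaled by TMM. Each log2 fold change is Jag1Ndr/Ndr over Jag1+/+, given with its standard error (SE), and each interval is the 95% interval from that fit. On library totals alone, without TMM, 0 of the 10 passed, and log2 fold changes of all genes stood 0.13 higher at the median.

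**Figure D1:**
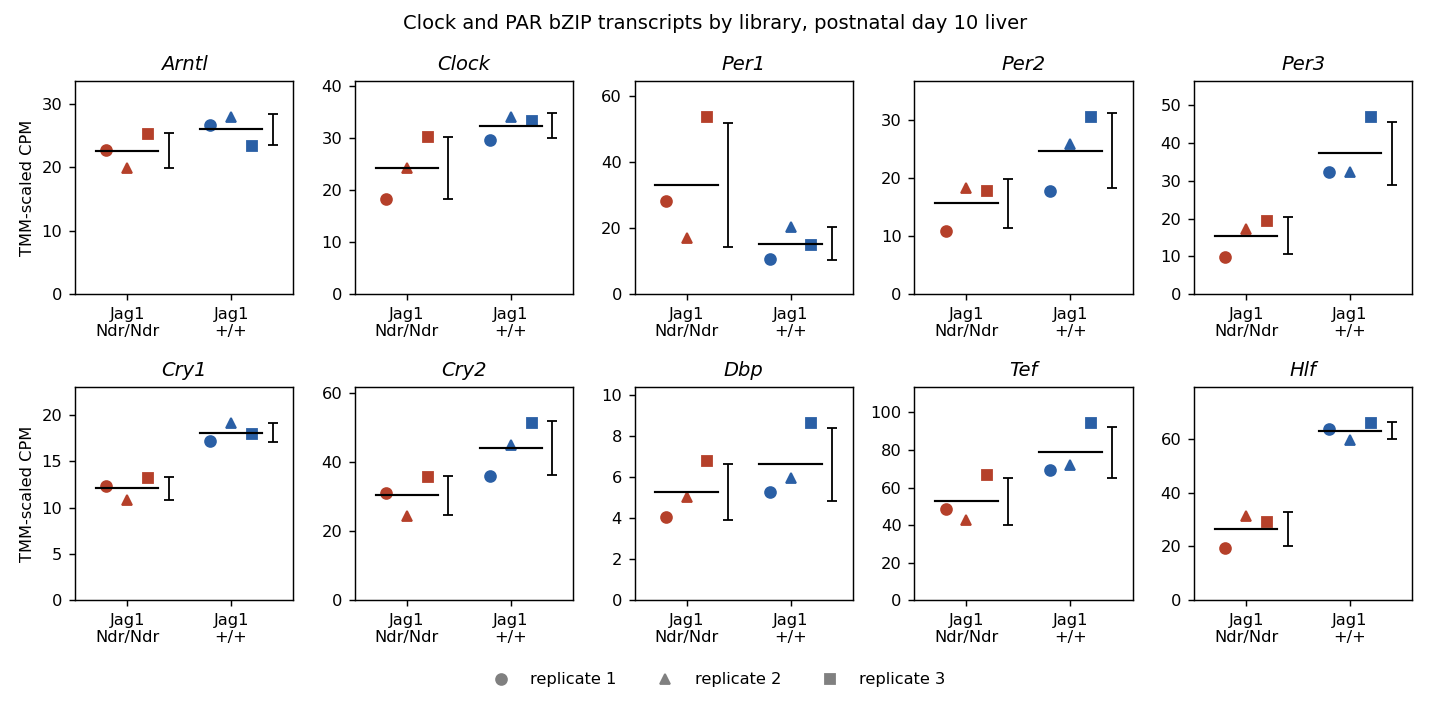
Level of each of the 10 genes in each library as TMM-scaled CPM on a linear axis from 0, with Jag1Ndr/Ndr on the left and Jag1+/+ on the right of each panel. Horizontal lines are means, bars the SD of 3 libraries, and marker shapes the replicate numbers; the genotypes lie apart in Per3, Cry1, Cry2, Tef and Hlf.

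Hlf (chromosome 11, positions 90336535 to 90390917 of GRCm38), a PAR bZIP activator abundant in adult liver, measured 19.4, 31.3 and 29.0 CPM in Jag1Ndr/Ndr replicates 1, 2 and 3, against 63.5, 59.6 and 65.9 CPM in Jag1+/+ replicates 1, 2 and 3. Every Jag1Ndr/Ndr library lay far below every Jag1+/+ library, and the Jag1+/+ libraries differed little among themselves. Its log2 fold change was -1.24 ± 0.19 (SE), with an interval of -1.68 to -0.80 and an edgeR adjusted p of 0.00956. The call held whichever of the 6 libraries was left out, with adjusted p between 0.00756 and 0.0478. On library totals the log2 fold change was -1.09 with an edgeR adjusted p of 0.0584, and -1.21 relative to the median shift of all genes. In the authors' RPKM (reads scaled by gene length and library total, and by their own factors) it was -0.88 on the log2(RPKM + 1) scale, with a limma adjusted p of 0.316, and -1.08 relative to the median shift. With the authors' factors dividing instead of multiplying, an alternative added after seeing the data, it was -1.13 (limma adjusted p = 0.00925).

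Tef, the thyrotroph embryonic factor, shares the D-box specificity of Hlf. It measured 48.7, 42.5 and 66.7 CPM in Jag1Ndr/Ndr replicates 1, 2 and 3, against 69.6, 72.2 and 94.5 CPM in Jag1+/+ replicates 1, 2 and 3. The genotypes did not overlap, though the highest Jag1Ndr/Ndr library came close to the lowest Jag1+/+ library. The log2 fold change was -0.58 ± 0.21 and did not pass (edgeR adjusted p = 0.138, interval -1.06 to -0.10). Dbp, first found through the albumin promoter and strongly rhythmic in adult liver, was the lowest of the 10 in CPM. It measured 4.08, 5.05 and 6.77 CPM in Jag1Ndr/Ndr replicates 1, 2 and 3, against 5.27, 5.94 and 8.66 CPM in Jag1+/+ replicates 1, 2 and 3. The genotypes overlapped, and the log2 fold change was -0.32 ± 0.28 (edgeR adjusted p = 0.570), with an interval of -0.96 to 0.32. Dbp rested on between 46 and 360 reads per Jag1Ndr/Ndr library and between 91 and 335 per Jag1+/+ library. Of its 2993 annotated exon bases, 539 overlap exons of Sphk2 on the other strand, and the kit does not mark strand. Antisense exons likewise overlap 295 exon bases of Cry2, 193 of Tef and 33 of Arntl, and 0 of the other 6 genes.

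Among the Period genes, which encode repressors of the main loop, log2 fold changes took both signs. Per3 (chromosome 4, positions 150997018 to 151044707 of GRCm38), the member least required for the rhythm in mice, measured 9.93, 17.1 and 19.4 CPM in Jag1Ndr/Ndr replicates 1, 2 and 3, against 32.4, 32.3 and 47.1 CPM in Jag1+/+ replicates 1, 2 and 3. All Jag1Ndr/Ndr libraries lay below all Jag1+/+ libraries. The log2 fold change was -1.26 ± 0.27, with an interval of -1.87 to -0.65 and an edgeR adjusted p of 0.0279. Leaving out Jag1+/+ replicate 1, 2 or 3 lost the call (edgeR adjusted p = 0.0710, 0.0667 and 0.104), while the log2 fold change stayed between -1.44 and -1.04 over all libraries left out. Adding a sex term gave -1.39 with an edgeR adjusted p of 0.0576. Library totals gave -1.10 (edgeR adjusted p = 0.1001), and log2(RPKM + 1) gave -0.79 (limma adjusted p = 0.420). With the authors' factors dividing, log2(RPKM + 1) gave -1.05, which passed (limma adjusted p = 0.0288).

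Per2, a repressor that also responds to systemic cues in mouse liver, measured 10.8, 18.3 and 17.9 CPM in Jag1Ndr/Ndr replicates 1, 2 and 3, against 17.8, 25.8 and 30.6 CPM in Jag1+/+ replicates 1, 2 and 3. Jag1+/+ replicate 1 lay among the Jag1Ndr/Ndr libraries, and the log2 fold change, -0.65 ± 0.26, did not pass (edgeR adjusted p = 0.188, interval -1.26 to -0.048). Per1, which is quickly induced by light, glucocorticoids and other signals in many tissues, had the opposite sign. It measured 28.3, 17.1 and 53.8 CPM in Jag1Ndr/Ndr replicates 1, 2 and 3, against 10.54, 20.4 and 15.01 CPM in Jag1+/+ replicates 1, 2 and 3. Jag1Ndr/Ndr replicates 1 and 3 lay above the Jag1+/+ range and replicate 2 within it. The log2 fold change was 1.10 ± 0.41 with an interval of 0.17 to 2.04, and it did not pass by edgeR (adjusted p = 0.151) but did by DESeq2 (0.0446). Without Jag1Ndr/Ndr replicate 2 it was 1.42 and passed (edgeR adjusted p = 0.0428), and without Jag1Ndr/Ndr replicate 3 it was 0.56 (edgeR adjusted p = 0.372). The within-genotype SD of Per1 in log2 CPM was 0.674, above that of 91.9% of genes tested. The median of this SD was 0.279 over the 10 genes, against 0.277 over all genes tested.

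The cryptochromes Cry1 and Cry2 encode partners of the Period proteins and strong repressors of CLOCK and ARNTL. Cry1 measured 12.3, 10.8 and 13.2 CPM in Jag1Ndr/Ndr replicates 1, 2 and 3, against 17.2, 19.1 and 17.9 CPM in Jag1+/+ replicates 1, 2 and 3. The genotypes did not overlap, and the libraries of each lay close together, with a within-genotype SD in log2 CPM of 0.119, above that of 8.80% of genes tested. The log2 fold change, -0.58 ± 0.16 (interval -0.95 to -0.22), missed the threshold by edgeR (adjusted p = 0.0620) and passed by DESeq2 (0.0262) and by limma with library weights (0.0379). Cry2 measured 31.0, 24.6 and 35.7 CPM in Jag1Ndr/Ndr replicates 1, 2 and 3, against 35.9, 45.0 and 51.5 CPM in Jag1+/+ replicates 1, 2 and 3. Its genotypes were separated narrowly, between Jag1Ndr/Ndr replicate 3 and Jag1+/+ replicate 1, and the log2 fold change, -0.54 ± 0.20, did not pass (edgeR adjusted p = 0.138). In all, the genotypes did not overlap in 5 of the 10 genes, each of them lower in Jag1Ndr/Ndr livers; 29.0% of all genes tested had no overlap in either direction, and 14.2% lay lower.

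The activators of the main loop did not pass the test. Arntl measured 22.7, 19.9 and 25.3 CPM in Jag1Ndr/Ndr replicates 1, 2 and 3, against 26.6, 27.98 and 23.3 CPM in Jag1+/+ replicates 1, 2 and 3. The genotypes overlapped, at -0.20 ± 0.16 on the log2 scale (edgeR adjusted p = 0.525, interval -0.56 to 0.16), and the sign turned on the log2(RPKM + 1) scale, at 0.045. Relative to the median shift of all genes that value was -0.16, and with the authors' factors dividing the log2 fold change was -0.19. Clock measured 18.3, 24.2 and 30.2 CPM in Jag1Ndr/Ndr replicates 1, 2 and 3, against 29.6, 34.1 and 33.3 CPM in Jag1+/+ replicates 1, 2 and 3. Only Jag1Ndr/Ndr replicate 3 reached the Jag1+/+ range, and the fold change on the log2 scale was -0.41 ± 0.19 (edgeR adjusted p = 0.263, interval -0.86 to 0.035). Npas2, a paralog that can replace Clock, measured 2.93, 3.49 and 3.68 CPM in Jag1Ndr/Ndr replicates 1, 2 and 3, against 4.40, 4.77 and 4.03 CPM in Jag1+/+ replicates 1, 2 and 3. Its genotypes did not overlap, and the log2 fold change was -0.38 ± 0.22 (edgeR adjusted p = 0.371).

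**Figure D2:**
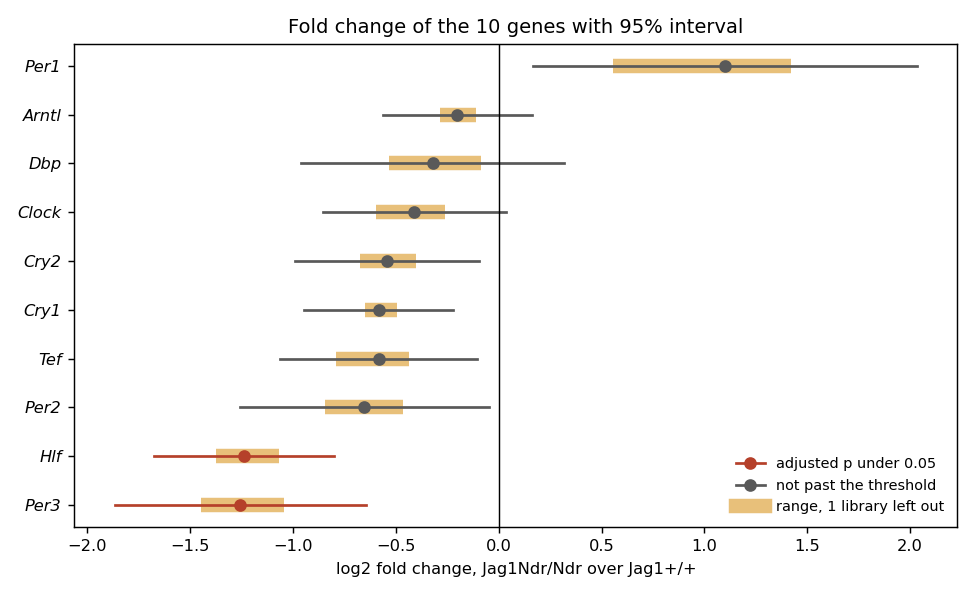
Log2 fold change of the 10 genes, Jag1Ndr/Ndr over Jag1+/+, from edgeR, with 95% intervals and the range obtained on leaving out each library in turn. Per3 and Hlf passed the threshold, Per1 alone lies above 0, and the intervals of Clock, Dbp and Arntl include 0.

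Replicate 3 held the highest level among the Jag1Ndr/Ndr libraries in 8 of the 10 genes and replicate 1 in 0, whereas 28.5% of all genes tested were highest there in replicate 3 and 36.2% in replicate 1. Among the Jag1+/+ libraries replicate 3 was highest in 6 of the 10, against 33.9% of all genes tested, and replicate 1 lowest in 7, against 36.5%. Per3, Cry2, Dbp and Tef were highest in replicate 3 of both genotypes, which held for 13.6% of all genes tested. The labels do not state what the replicate numbers share. Across the 6 libraries the members most alike were Cry2 and Tef, whose log2 CPM, centred on each gene's mean, differed by a root mean square of 0.113. Next came Cry1 and Cry2 (0.154) and then Per3 and Hlf (0.189).

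Between genes, levels were compared per kilobase, as the deposited RPKM with the authors' factor taken out and edgeR's TMM factor applied. Tef was the most abundant of the 10 on this scale, at 13.7 ± 3.42 in Jag1Ndr/Ndr and 20.1 ± 3.48 in Jag1+/+ livers (rescaled RPKM, mean ± SD, n = 3 each). In Jag1Ndr/Ndr livers the order after Tef was Arntl, Cry2, Per1, Hlf, Dbp, Cry1, Per2, Per3 and Clock. The libraries of neighbours in that order overlapped except between Tef and Arntl and between Cry1 and Per2. In Jag1+/+ livers the order after Tef was Cry2, Hlf, Arntl, Per3, Cry1, Dbp, Per2, Clock and Per1. There Tef lay above Cry2, Hlf above Arntl and Arntl above Per3 in all libraries, and the other neighbours overlapped. Hlf stood at 4.83 ± 1.14 in Jag1Ndr/Ndr and 11.4 ± 0.542 in Jag1+/+ livers (rank 5 in Jag1Ndr/Ndr and 3 in Jag1+/+). Per1 stood at 7.36 ± 4.22 in Jag1Ndr/Ndr and 3.38 ± 1.09 in Jag1+/+ livers (rank 4 in Jag1Ndr/Ndr and 10 in Jag1+/+), and Per3 at 2.66 ± 0.858 in Jag1Ndr/Ndr and 6.37 ± 1.44 in Jag1+/+ livers (rank 9 in Jag1Ndr/Ndr and 5 in Jag1+/+). The lowest levels per length were those of Clock in Jag1Ndr/Ndr livers and of Per1 in Jag1+/+ livers.

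Of 17 other genes of the clock loops reported here 15 were tested, and 0 rose and 0 fell by edgeR, with 5 log2 fold changes above and 10 below 0 and a median of -0.084. DESeq2 and limma with quality weights gave the same counts, and 2 had an unadjusted p under 0.05. The Rev-erb receptors, which repress Arntl, overlapped between the genotypes. Nr1d1 measured 17.6, 12.7 and 16.6 CPM in Jag1Ndr/Ndr replicates 1, 2 and 3, against 9.67, 12.5 and 20.4 CPM in Jag1+/+ replicates 1, 2 and 3. The log2 fold change was 0.13 ± 0.28 (edgeR adjusted p = 0.849, interval -0.52 to 0.77) and turned to -0.085 without Jag1+/+ replicate 1. Nr1d2 had 18.4 ± 4.17 CPM in Jag1Ndr/Ndr and 16.6 ± 4.79 CPM in Jag1+/+ livers, and its log2 fold change was 0.15 ± 0.25 (edgeR adjusted p = 0.784). Nfil3, a bZIP repressor that competes with the PAR bZIP factors for D-boxes, measured 38.1, 20.5 and 27.6 CPM in Jag1Ndr/Ndr replicates 1, 2 and 3, against 25.2, 24.5 and 27.7 CPM in Jag1+/+ replicates 1, 2 and 3. All Jag1+/+ libraries lay within the Jag1Ndr/Ndr range (log2 fold change 0.15 ± 0.22, edgeR adjusted p = 0.768). Bhlhe40, a bHLH repressor at E-boxes, spread between 57.6 and 145 CPM in Jag1Ndr/Ndr livers, against 103 to 136 CPM in Jag1+/+ livers (edgeR adjusted p = 0.734). Its relative Bhlhe41 did not pass the filter, with at most 36 reads in a Jag1Ndr/Ndr library and 10 in a Jag1+/+ library. Ciart, a repressor of the main loop, had 0.388 ± 0.135 CPM in Jag1Ndr/Ndr and 0.426 ± 0.215 CPM in Jag1+/+ livers. Its difference on the log2 scale, -0.12 ± 0.52, did not pass (edgeR adjusted p = 0.926, interval -1.32 to 1.07).

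**Figure D3:**
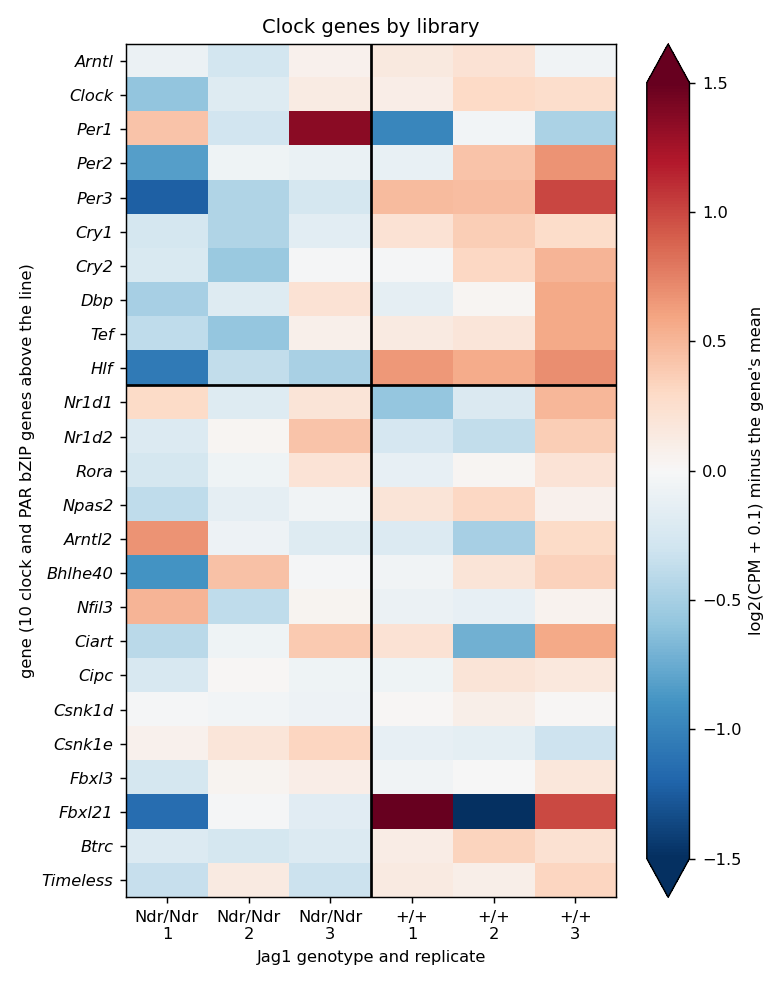
Level of the 10 clock and PAR bZIP genes and of the other clock loop genes tested in each library, as log2(CPM + 0.1) minus the gene's mean over the 6 libraries, with Jag1Ndr/Ndr on the left and colours ending at 1.5 in either direction. Per3 and Hlf lie below their mean in all Jag1Ndr/Ndr libraries and above it in all Jag1+/+ libraries, while Nr1d1, Nr1d2 and Nfil3 mix.

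Of 14 genes known to respond to the PAR bZIP factors in mouse liver, or related to such genes, 0 rose and 3 fell by edgeR, with 8 log2 fold changes above and 6 below 0 and a median of 0.098. DESeq2 called 1 higher and 3 lower, limma with quality weights 0 higher and 3 lower, and 7 had an unadjusted p under 0.05. Cyp2b9 and Cyp2b10, cytochromes P450 with close paralogs that can share reads, fell. Cyp2b9 measured 93.0, 111 and 106 CPM in Jag1Ndr/Ndr replicates 1, 2 and 3, against 264, 293 and 347 CPM in Jag1+/+ replicates 1, 2 and 3. Cyp2b10, a drug-induced enzyme, measured 0.355, 0.154 and 0.320 CPM in Jag1Ndr/Ndr replicates 1, 2 and 3, against 7.24, 2.27 and 5.56 CPM in Jag1+/+ replicates 1, 2 and 3. These Cyp2b10 levels rest on only 4, 11 and 6 reads in Jag1Ndr/Ndr replicates, against 125, 70 and 215 in Jag1+/+ replicates. The size of its fold change is therefore uncertain, and it was -1.53 on the log2(RPKM + 1) scale (limma adjusted p = 0.00279). Both genes lay far lower in every Jag1Ndr/Ndr library, with log2 fold changes of -1.54 ± 0.18 for Cyp2b9 and -4.38 ± 0.57 for Cyp2b10 (edgeR adjusted p = 0.00353 and 0.00548), and both calls held whichever library was left out. Ppara, the fatty acid sensor, measured 79.0, 183 and 136 CPM in Jag1Ndr/Ndr replicates 1, 2 and 3, against 275, 347 and 408 CPM in Jag1+/+ replicates 1, 2 and 3. The genotypes did not overlap, and the log2 fold change was -1.37 ± 0.31 (edgeR adjusted p = 0.0349). The call was lost without Jag1+/+ replicate 1, 2 or 3 (edgeR adjusted p = 0.0710, 0.103 and 0.120) and without Jag1Ndr/Ndr replicate 3 (0.0734).

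The other 11 genes of that list did not pass. Por, the electron donor of the cytochromes P450, had 297 ± 49.4 CPM in Jag1Ndr/Ndr and 324 ± 42.5 CPM in Jag1+/+ livers (log2 fold change -0.13 ± 0.19, edgeR adjusted p = 0.768). Alas1, of haem synthesis, had 97.5 ± 28.3 CPM in Jag1Ndr/Ndr and 129 ± 41.8 CPM in Jag1+/+ livers (log2 fold change -0.40 ± 0.28, edgeR adjusted p = 0.454). Both overlapped between the genotypes. Nr1i3, the drug-sensing receptor CAR that drives Cyp2b10, measured 83.0, 49.7 and 36.5 CPM in Jag1Ndr/Ndr replicates 1, 2 and 3, against 43.5, 60.6 and 47.0 CPM in Jag1+/+ replicates 1, 2 and 3. Jag1Ndr/Ndr replicates 1 and 3 lay on opposite sides of the Jag1+/+ range (log2 fold change 0.16 ± 0.29, edgeR adjusted p = 0.810). The 8 genes with log2 fold changes above 0, among them Cyp4a10, had edgeR adjusted p between 0.101 and 0.977. The lowest was that of Cyp2a5, a cytochrome P450 that metabolises coumarin, which measured 21.5, 10.3 and 15.5 CPM in Jag1Ndr/Ndr replicates 1, 2 and 3, against 9.90, 7.66 and 8.35 CPM in Jag1+/+ replicates 1, 2 and 3. Its genotypes did not overlap, with a log2 fold change of 0.86 ± 0.27, and it is the gene of this list that DESeq2 called higher.

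Of 11 genes known to cycle in mouse liver 10 were tested, and 1 rose and 1 fell by edgeR, with 5 log2 fold changes above and 5 below 0 and a median of 0.011. DESeq2 called 1 higher and 2 lower, limma with quality weights 1 higher and 1 lower, and 3 had an unadjusted p under 0.05. Lonrf3, a RING finger gene, measured 6.38, 7.91 and 6.77 CPM in Jag1Ndr/Ndr replicates 1, 2 and 3, against 12.1, 13.0 and 14.3 CPM in Jag1+/+ replicates 1, 2 and 3. Rgs16, a brake on G protein signalling, measured 14.2, 19.4 and 5.71 CPM in Jag1Ndr/Ndr replicates 1, 2 and 3, against 2.66, 2.40 and 1.27 CPM in Jag1+/+ replicates 1, 2 and 3. Neither gene overlapped between the genotypes, and the log2 fold changes were -0.90 ± 0.18 for Lonrf3 and 2.66 ± 0.47 for Rgs16 (edgeR adjusted p = 0.0220 and 0.0146). Without Jag1+/+ replicate 1, 2 or 3 neither passed, with edgeR adjusted p of 0.0666, 0.0928 and 0.108 for Lonrf3 and 0.0563, 0.0577 and 0.0593 for Rgs16, and Lonrf3 was also lost without Jag1Ndr/Ndr replicate 3 (0.0553). Nampt, an enzyme of NAD synthesis, measured 53.9, 66.1 and 79.7 CPM in Jag1Ndr/Ndr replicates 1, 2 and 3, against 109, 81.7 and 130.1 CPM in Jag1+/+ replicates 1, 2 and 3. All its Jag1Ndr/Ndr libraries lay below its Jag1+/+ libraries; at -0.68 ± 0.22 it was called lower by DESeq2 but not by edgeR (adjusted p = 0.102). Wee1, a cell cycle kinase and E-box target, had 14.04 ± 2.81 CPM in Jag1Ndr/Ndr and 11.8 ± 0.852 CPM in Jag1+/+ livers (log2 fold change 0.26 ± 0.19, edgeR adjusted p = 0.500). Usp2, a deubiquitinase, had 5.89 ± 2.84 CPM in Jag1Ndr/Ndr and 4.39 ± 1.16 CPM in Jag1+/+ livers (log2 fold change 0.41 ± 0.37, edgeR adjusted p = 0.588), and both overlapped between the genotypes.

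**Figure D4:**
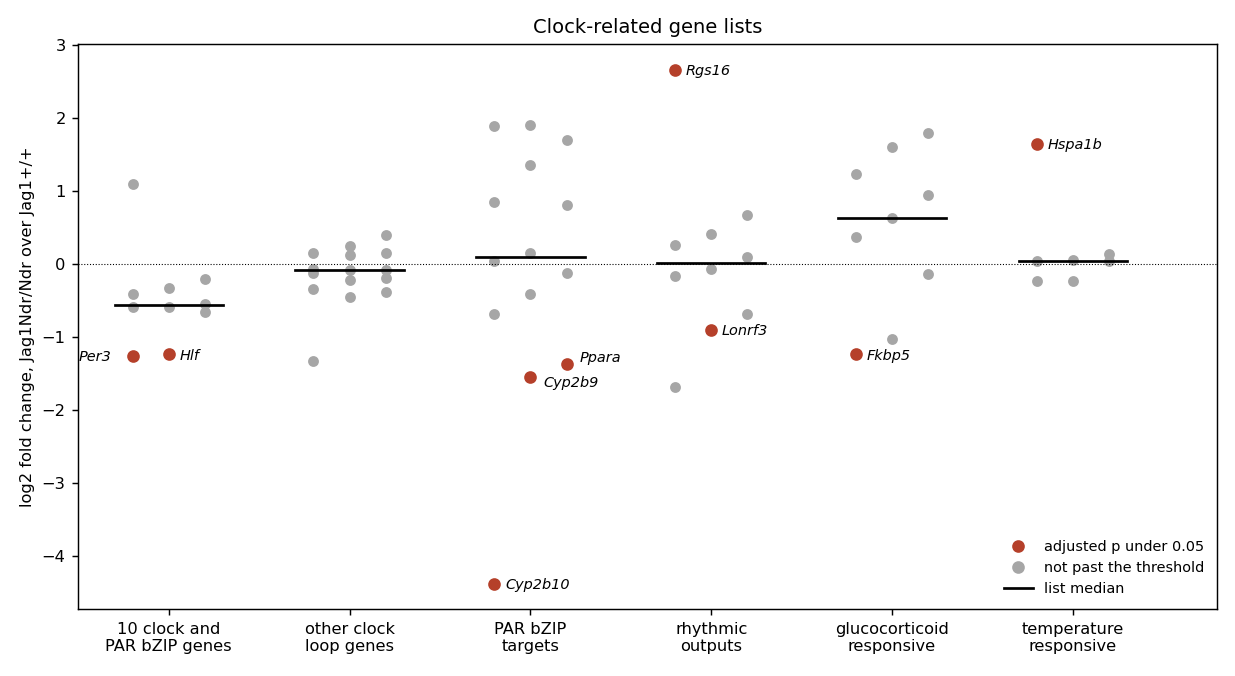
Log2 fold change, Jag1Ndr/Ndr over Jag1+/+, of each tested gene among the 10 clock and PAR bZIP genes and 5 related lists, with list medians as lines and the genes past the threshold named. The median of the 10 genes lies at -0.56, that of the other clock loop genes at -0.084 and that of the glucocorticoid-responsive genes at 0.63.

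Glucocorticoids and body temperature are cues that set the liver clock, and Per1 is itself induced by glucocorticoids. Of 9 other glucocorticoid-responsive genes 0 rose and 1 fell by edgeR, with 6 log2 fold changes above and 3 below 0, a median of 0.63 and 5 at an unadjusted p under 0.05. DESeq2 called 2 higher and 2 lower, and limma with quality weights 1 higher and 1 lower. Fkbp5, a chaperone that dampens the glucocorticoid receptor, measured 60.5, 68.3 and 40.7 CPM in Jag1Ndr/Ndr replicates 1, 2 and 3, against 123, 163 and 113 CPM in Jag1+/+ replicates 1, 2 and 3. The genotypes did not overlap, and the log2 fold change was -1.24 ± 0.23 (edgeR adjusted p = 0.0183), with the call lost without Jag1+/+ replicate 1 or 2 (edgeR adjusted p = 0.0616 and 0.0801). Tsc22d3, which encodes the leucine zipper protein GILZ, measured 18.7, 12.7 and 36.4 CPM in Jag1Ndr/Ndr replicates 1, 2 and 3, against 44.0, 45.0 and 48.3 CPM in Jag1+/+ replicates 1, 2 and 3. The genotypes did not overlap, and the log2 fold change, -1.02 ± 0.34, did not pass (edgeR adjusted p = 0.112), but was -1.56 without Jag1Ndr/Ndr replicate 3 (edgeR adjusted p = 0.0131). DESeq2 called both lower. The genes it called higher were Zbtb16, a zinc finger transcription factor, and Dusp1, a phosphatase of MAP kinases. Zbtb16 measured 5.14, 7.55 and 14.1 CPM in Jag1Ndr/Ndr replicates 1, 2 and 3, against 0.984, 4.61 and 2.02 CPM in Jag1+/+ replicates 1, 2 and 3. Dusp1 measured 16.0, 26.0 and 52.2 CPM in Jag1Ndr/Ndr replicates 1, 2 and 3, against 13.8, 11.3 and 14.99 CPM in Jag1+/+ replicates 1, 2 and 3. In both genes every Jag1Ndr/Ndr library lay above every Jag1+/+ library. The log2 fold changes were 1.80 ± 0.55 for Zbtb16 and 1.23 ± 0.38 for Dusp1, neither passing by edgeR (adjusted p = 0.0913 and 0.0927), and limma with quality weights called Dusp1 higher.

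Of 8 heat-shock and cold-responsive genes 7 were tested, and 1 rose and 0 fell by edgeR, with a median log2 fold change of 0.048. DESeq2 and limma with quality weights gave the same counts, and only Hspa1b had an unadjusted p under 0.05. Hspa1b, an inducible chaperone with a near-identical copy, Hspa1a, that can share its reads, measured 1.51, 1.08 and 1.12 CPM in Jag1Ndr/Ndr replicates 1, 2 and 3, against 0.405, 0.389 and 0.362 CPM in Jag1+/+ replicates 1, 2 and 3. These levels rest on between 17 and 77 reads per Jag1Ndr/Ndr library and between 7 and 14 per Jag1+/+ library, and the genotypes did not overlap (log2 fold change 1.65 ± 0.34, edgeR adjusted p = 0.0253). The call was lost without Jag1+/+ replicate 1, 2 or 3 (edgeR adjusted p = 0.0901, 0.118 and 0.134) and without Jag1Ndr/Ndr replicate 3 (0.0506). Cirbp, an RNA-binding protein that rises in the cold, measured 33.2, 20.1 and 22.0 CPM in Jag1Ndr/Ndr replicates 1, 2 and 3, against 23.9, 27.6 and 21.1 CPM in Jag1+/+ replicates 1, 2 and 3. The genotypes overlapped (log2 fold change 0.046 ± 0.22, edgeR adjusted p = 0.934), and the sign turned without Jag1Ndr/Ndr replicate 1 (-0.21) or Jag1+/+ replicate 3 (-0.044).

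Several of these list calls were also lost under another scaling or when a sex term was added. An effect of sex itself on these genes was not tested. With a sex term Ppara, Lonrf3, Fkbp5 and Hspa1b did not pass (edgeR adjusted p = 0.0732, 0.0607, 0.0534 and 0.0532). On library totals Ppara and Lonrf3 did not pass (edgeR adjusted p = 0.113 and 0.114). On the log2(RPKM + 1) scale Ppara, Lonrf3, Fkbp5 and Hspa1b did not pass (limma adjusted p = 0.173, 0.676, 0.160 and 0.115). With the authors' factors dividing, Ppara, Lonrf3 and Fkbp5 passed (limma adjusted p = 0.0214, 0.0235 and 0.0278) and Hspa1b did not (0.0551). Under quantile normalization Ppara did not pass (limma adjusted p = 0.0581).

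The genes whose levels over the 6 libraries were most like those of Hlf and Per3 were sought among 12770 tested genes with a mean of at least 1 CPM, by the root mean square difference of centred log2 CPM. For Hlf they were Ddo, the gene of D-aspartate oxidase (0.0702), the chemokine gene Cxcl12 (0.0935) and the zinc transporter gene Slc30a4 (0.119). Cxcl12 measured 188, 260.2 and 269 CPM in Jag1Ndr/Ndr replicates 1, 2 and 3, against 507, 530.3 and 601 CPM in Jag1+/+ replicates 1, 2 and 3, and like Hlf it was lowest in Jag1Ndr/Ndr replicate 1. For Per3 the closest was 3110057O12Rik (0.0621), and the sulfatase gene Sulf2 was also among the nearest 3 (0.140). Sulf2 measured 8.60, 14.9 and 18.7 CPM in Jag1Ndr/Ndr replicates 1, 2 and 3, against 31.2, 27.4 and 33.9 CPM in Jag1+/+ replicates 1, 2 and 3, and like Per3 it was highest in Jag1+/+ replicate 3. Hlf ranked 13 in likeness to Per3, and Per3 ranked 29 in likeness to Hlf. The likeness was chosen from these libraries and carries no test.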

How the data were processed

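Per the labels' protocols, polyadenylated RNA was prepared for sequencing without strand information. STAR and mm10 are named per the submitters' processing notes; the read counter and all versions are not given in the sources used here. The authors deposited raw read counts for each gene entry and, beside them, RPKM multiplied by the TMM factors listed per the file headers. Levels scaled by edgeR are divided by its TMM factors, so the deposited RPKM was scaled in the opposite direction. The header factors ran with those of edgeR, at 0.796 and 0.869 in Jag1Ndr/Ndr replicate 1 and 1.28 and 1.20 in Jag1Ndr/Ndr replicate 2. With those factors divided out, 98.0% of 66799 RPKM values fitted reads over library total and a constant gene length within 5%.

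Counts were analysed as deposited, apart from 93 spike-in and eGFP rows (5 reads). Groups came from the labels. The 13819 entries that filterByExpr kept were scaled by TMM, fitted over all 6 libraries with edgeR's quasi-likelihood model and tested two-sided, p-values being adjusted over all of them by Benjamini-Hochberg (threshold 0.05). The SE is the log2 fold change divided by the square root of F. Log2 CPM used a prior count of 2. R 4.3.3, edgeR 4.0.16, limma 3.58.1 and DESeq2 1.42.0 were used. In the shallowest library 0 reads would allow 0.231 CPM (3 reads, on the library total without TMM), for counting error only. The 10 genes, the 13 other lists (125 genes, 124 matched, some through an older symbol) and the naming rule were chosen with earlier results of these data known. The rule names all 10 genes, list genes past the threshold, a set of clock and target genes, and the 3 genes most like each of the 10 that passed. Cyp2a5, Cyp4a10, Nampt, Zbtb16, Dusp1 and Ass1 lie outside it and were picked with their values known. Some items that the rule would name are not reported here.

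Alternatives were other scalings, filters and tests, limma on log2 RPKM with pseudocounts of 1 and 0.1, a replicate block, a sex term and omission of each library; the version with the header factors dividing was added after seeing the data. On simulated counts for this comparison (13819 genes), the test found 49 of 100 genes altered 2-fold, 98 of 100 altered 4-fold and 9 of 13549 unaltered ones.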

Additional observations from a re-analysis of the deposited data

How the results depend on the processing

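Of the 10 clock and PAR bZIP genes, 2 were lower. The number was 0 on library totals and in the deposited RPKM with pseudocounts of 1 and 0.1, 2 with the header factors dividing, 1 with a sex term and 1 to 2 without each library. The number higher was 1 by DESeq2 and 0 to 1 without each library. The replicate block gave 4 lower, Per2 and Tef passing beside Per3 and Hlf (edgeR adjusted p = 0.0386 and 0.0378), and 5 list genes higher. It also called more of all genes tested, with 843 higher and 587 lower, against 653 and 401 without it. The replicate numbers were not taken as pairs, since the planned test had no covariate and the labels do not state what the numbers share. The deviations of same-numbered libraries correlated by 0.086, 0.17 and 0.19. Each Jag1Ndr/Ndr library correlated best with its own number, a hint from the data and not the design.

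Over all genes, 653 were higher and 401 lower. Library totals gave 210 lower, the filter of 10 CPM 382 higher, DESeq2 1123 higher and 735 lower, and quality weights 644 lower. The deposited RPKM gave 388 higher and 101 lower with a pseudocount of 1, 427 and 117 with 0.1, and 420 higher with the header factors dividing; the pseudocounts of 1 and 0.1 came with median shifts of all log2 fold changes of 0.21 and 0.22. A sex term gave 366 higher and 230 lower, and omission of each library 155 to 679 higher and 127 to 532 lower. Of the genes of the 5 related lists 2 were higher and 5 lower. The number lower was 3 on library totals, 2 with a sex term, 2 in the deposited RPKM with either pseudocount and 2 to 5 without each library. The number higher was 5 by DESeq2, 0 with the filter of 10 CPM, 1 with a sex term and with the header factors dividing, and 0 to 5 without each library. The causes were not tested.

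Some log2 fold changes that passed under none of these settings changed sign. Ciart stood at 0.040 on library totals, 0.056 with the replicate block and 0.38 with quality weights, under which Nr1i3 and Cirbp stood at -0.25 and -0.14. In the deposited RPKM with pseudocounts of 1 and 0.1, Arntl stood at 0.045 and 0.044, Ciart at 0.053 and 0.16 and Por at 0.11 and 0.11; under quantile normalization Por stood at 0.033. Over the libraries left out, the ranges were -0.085 to 0.49 for Nr1d1, -0.038 to 0.41 for Nr1d2, -0.12 to 0.35 for Nfil3, -0.56 to 0.053 for Bhlhe40, -0.23 to 0.40 for Nr1i3, -0.062 to 0.67 for Usp2 and -0.21 to 0.19 for Cirbp. Ciart had the lowest level of these genes, with mean CPM of 0.388 in Jag1Ndr/Ndr and 0.426 in Jag1+/+ livers; the part of depth was not tested.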
